A study of Homo sapiens with 6 samples.

Results

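Nucleic acid sensing upstream of IRF3 was described through 10 genes, CGAS, ZBP1, DDX41, TREX1, MAVS, TICAM1, TBK1, IKBKE, TANK and AZI2. They were chosen as genes that detect DNA or RNA, carry that signal to IRF3 or, as the nuclease TREX1 does, limit the DNA that can be detected, and were found by symbol among the 33095 genes of each table. All 10 occurred once in each table and all 10 carried an adjusted p in each. The cells were MM.1S, an established line of multiple myeloma, the malignancy of plasma cells that secrete antibody. Lentiviral transduction gave them a scramble control hairpin, IRF3 shRNA 1 or IRF3 shRNA 2, and 2 poly(A)-selected libraries were sequenced for each, 6 in all. The scramble cells therefore also carried a lentivirus and a hairpin, and cells without either were not analysed here. The measurements are a line's response in culture, with no label that says whether libraries of a group came from separate cultures, so the p-values rest on a spread between libraries that may be technical alone.

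In the cytosol, cGAS binds double-stranded DNA and makes a cyclic dinucleotide that activates the adaptor STING, while RIG-I and MDA5 bind viral RNA and activate the mitochondrial adaptor MAVS. Toll-like receptor 3 signals through a further adaptor, TRIF, the product of TICAM1. All of these routes meet at the kinases TBK1 and IKKε (IKBKE), which phosphorylate IRF3, so that it enters the nucleus and induces type I interferon. The scaffolds TANK and NAP1 (AZI2) bind these kinases, the nuclease TREX1 removes cytosolic DNA, and ZBP1 binds nucleic acids in the Z form.

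The sources used here give no value of a single library, and the depth of each library is unknown. Each table gives a normalised read count averaged over all fitted libraries, a log2 fold change of the hairpin over scramble, the standard error (SE) of that change, and DESeq2 p-values before and after adjustment, and a gene is called changed here at an adjusted p below 0.05. Group means were reconstructed from that mean and both fold changes. The targeted gene, IRF3, was at a reconstructed mean of 2809 normalised read counts in scramble, 974.1 with shRNA 1 and 2476 with shRNA 2. Its log2 fold change was -1.53 ± 0.10 (SE, the authors' deposited table) with shRNA 1 (DESeq2 adjusted p of 8.45e-46) and -0.18 ± 0.10 (SE) with shRNA 2 (0.181). A fall of IRF3 was thus called with shRNA 1 and was not detected in the libraries labelled shRNA 2, and every direction given for shRNA 2 is that of libraries so labelled. Of the exonic bases of IRF3, 19.3% are shared with BCL2L12 on the opposite strand, and strand handling during counting was not given. BCL2L12 had a mean of 528.8 and was called in neither comparison in the authors' deposited table. All 10 plasma cell markers looked at had means of 1665 to 31453 normalised read counts in the authors' deposited table, whereas the means of the 3 myeloid markers summed to 25.2 and those of the 3 epithelial markers to 36.6. The B cell antigen MS4A1 (3.82) was nearly absent in the authors' deposited table, CR2 stood at 1020, and the T cell gene CD3E stood at 57.1. Of the 10 plasma cell markers, 7 fell and 1 rose with shRNA 1, 8 fell and 1 rose with shRNA 2, and 7 fell with both, per the authors' deposited table. Over all genes tested, 24.6% and 29.0% were called in either direction with shRNA 1 and shRNA 2. Among the 8311 genes at least as abundant as the lowest of the 10 sensing genes, these shares were 34.5% and 43.1%. The share of all genes that fell with both was not computed. Among the markers that fell with both, IRF4 was at -1.21 and -1.87 log2 units and XBP1 at -0.83 and -1.15 with shRNA 1 and 2 in the authors' deposited table. SDC1 was the marker that rose with shRNA 1, at 0.28, and CD38 the one that rose with shRNA 2, at 0.89, in the authors' deposited table. Their part in the results below was not tested.

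Among the 10 genes, IKBKE rose and ZBP1 fell with each hairpin. MAVS and DDX41 fell with shRNA 1 and CGAS fell with shRNA 2. TBK1, TICAM1, TREX1, TANK and AZI2 were called in neither comparison. With shRNA 1, 1 gene was higher and 3 were lower of 10, beside 24.6% of the 14488 genes tested, per the authors' deposited table. With shRNA 2, 1 was higher and 2 were lower of 10, beside 29.0% of the 17054 genes tested. Among the 8311 genes at least as abundant as the lowest of the 10, 34.5% were called with shRNA 1 and 43.1% with shRNA 2. The sensing genes called, 40% with shRNA 1 and 30% with shRNA 2, lay near these shares for a list of 10 genes. No excess or lack of changed sensing genes is read from them. The median log2 fold change of the 10 genes was -0.20 with shRNA 1 and -0.11 with shRNA 2, computed from the authors' deposited table. Beside these stood -0.03 and 0.00 over all genes tested, and -0.05 and -0.07 over the 8311 genes. These are bulk libraries, in which fewer cells with a transcript and less of it per cell cannot be told apart, and the comparisons share their scramble libraries.

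**Figure D1:**
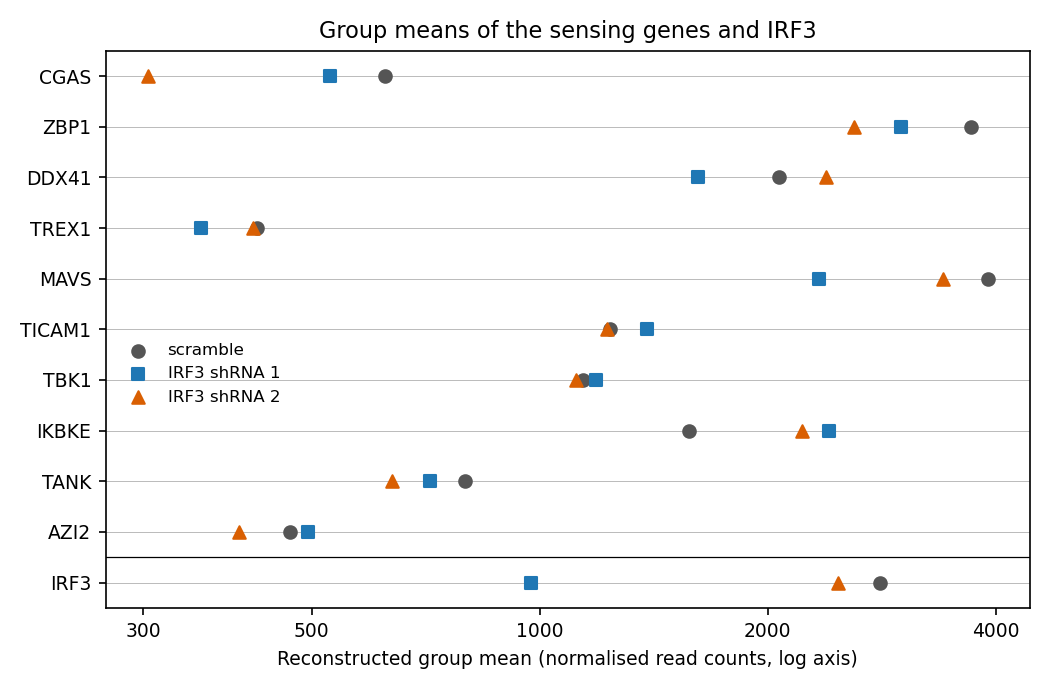
Reconstructed group means of the 10 sensing genes and of IRF3 in normalised read counts (log axis), one point per group of 2 libraries and no error bars, since single libraries were not available. CGAS spans the widest range of the 10, from 625.8 in scramble to 304.1 with shRNA 2, and IKBKE is the gene with both hairpin groups well above scramble.

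The promoters of 3 members are shown because they set the kinase that rose with both hairpins (IKBKE) beside its relative that was not called (TBK1) and beside the adaptor with the largest fall with shRNA 1 (MAVS). Each is the 250 bases before the RefSeq transcript start in GRCh38.p14, 5′ to 3′ on the gene's strand, with CG dinucleotides, the sites of DNA methylation, in capitals. IKBKE is read from the plus strand of chr1:206470226-206470475, TBK1 from the plus strand of chr12:64451870-64452119 and MAVS from the plus strand of chr20:3846584-3846833. The gene starts given below are those of GENCODE 29 and differ in part from RefSeq's. The IKBKE window ends just before its GENCODE gene start at 206470476. Most of the TBK1 window lies past its gene start at 64451880, and the MAVS window runs past its own at 3846799.
IKBKE: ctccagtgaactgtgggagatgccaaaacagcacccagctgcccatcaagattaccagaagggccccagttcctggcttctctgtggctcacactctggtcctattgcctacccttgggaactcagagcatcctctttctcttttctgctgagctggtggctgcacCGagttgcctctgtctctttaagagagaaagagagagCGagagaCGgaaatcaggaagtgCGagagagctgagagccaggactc
TBK1: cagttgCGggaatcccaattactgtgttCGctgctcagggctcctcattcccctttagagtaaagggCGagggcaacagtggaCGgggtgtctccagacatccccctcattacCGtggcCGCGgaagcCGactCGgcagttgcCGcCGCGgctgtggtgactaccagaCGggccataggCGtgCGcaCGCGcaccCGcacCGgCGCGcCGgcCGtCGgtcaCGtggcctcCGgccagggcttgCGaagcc
MAVS: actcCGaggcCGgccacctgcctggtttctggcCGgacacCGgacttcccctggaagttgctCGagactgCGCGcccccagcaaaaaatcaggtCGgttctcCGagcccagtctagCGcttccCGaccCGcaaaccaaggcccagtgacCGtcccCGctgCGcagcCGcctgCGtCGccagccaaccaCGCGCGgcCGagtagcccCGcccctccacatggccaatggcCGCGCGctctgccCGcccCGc
The IKBKE window held 4 CG dinucleotides, fewer than the median of 11 over all 35116 RefSeq windows, whereas those of TBK1 and MAVS held 27 and 28, above the upper quartile of 23. Their GC contents were 54.0%, 66.8% and 70.4%, beside a median of 58.0%. Windows were found for 8 of the 10 genes, 9 windows in all because TANK has 2 starts. Beyond these 3 genes, CG dinucleotides numbered 30 for AZI2, 28 for DDX41, 23 for TICAM1, 3 for TREX1, and 2 and 12 for the TANK starts. The windows of AZI2, DDX41 and the second TANK start lie wholly inside the GENCODE genes. Those of TREX1 and the first TANK start run past the GENCODE gene start. The CG counts therefore do not all describe sequence upstream of the gene. Of 4 motifs searched on both strands from 250 bases before to 50 after the start, none matched in the 9 windows. The core of the interferon-stimulated response element, the letters GAAA, any 2 bases and GAAA, to which IRF proteins bind, occurred in 3.57% of all windows. The composite ETS-IRF element, the letters GGAA, any 2 bases and GAAA, to which IRF4 binds with PU.1, occurred in 2.82%. The E2F sequences TTTCCCGC and TTTGGCGC occurred in 1.63% and 0.652%. These are matches of letters, and they say nothing of binding elsewhere.

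The sensors came first in the pathway and included the largest change of the 10 with shRNA 2. CGAS (ENSG00000164430, chromosome 6, 73413515 to 73452276, minus strand, GRCh38) encodes the cytosolic DNA sensor. Its reconstructed means were 625.8 normalised read counts in scramble, 529.1 with shRNA 1 and 304.1 with shRNA 2. CGAS was therefore lowest with shRNA 2, with the shRNA 1 level close below scramble. Its log2 fold change was -0.24 ± 0.17 (SE, the authors' deposited table) with shRNA 1 (DESeq2 adjusted p of 0.336), with a 95% interval of the ratio from 0.671 to 1.07. With shRNA 2 it fell to -1.04 ± 0.17 (SE, the authors' deposited table) (DESeq2 adjusted p of 3.24e-08), or 0.486 times scramble (interval 0.384 to 0.615). STING1, the adaptor on which cGAS depends, is listed as TMEM173 at a mean of only 8.90 normalised read counts in the authors' deposited table. At that low mean it carried no adjusted p, so that it could not be called either way. Its log2 fold changes were 1.09 ± 1.07 with shRNA 1 and -0.63 ± 1.15 with shRNA 2 (SE, the authors' deposited table).

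ZBP1 (ENSG00000124256, chromosome 20, 57603846 to 57620576, minus strand, GRCh38) encodes the sensor of Z-form nucleic acids, which can trigger necroptosis through RIPK3. Reconstructed means were 3710 normalised read counts in scramble, 2999 with shRNA 1 and 2597 with shRNA 2, so that each hairpin group lay below scramble. The log2 fold change of ZBP1 was -0.31 ± 0.09 (SE) with shRNA 1 (DESeq2 adjusted p of 0.00314) and -0.51 ± 0.09 (SE) with shRNA 2 (6.15e-08) per the authors' deposited table. These are ratios of 0.808 and 0.700. Per kilobase of its principal transcript, ZBP1 had the highest reconstructed scramble level of the 10 genes, 1690 normalised read counts per kilobase, beside 1661 for IRF3 itself. It stayed the highest of the 10 when all exonic bases were taken as the length, at 686.3, but was then below IRF3, at 740.3. AZI2 was the lowest by either length (99.5 and 73.8), whereas the rank of 8 genes of the 10 changed with the length used, so no order among those is given. RIPK3 and MLKL, the kinase and the effector of necroptosis, stood at means of 173.1 and 126.3 normalised read counts and were called in neither comparison in the authors' deposited table.

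DDX41 (ENSG00000183258, chromosome 5, 177511577 to 177517469, minus strand, GRCh38) encodes a DEAD-box helicase that takes part in splicing and has been described as a DNA sensor. Its reconstructed means were 2070 normalised read counts in scramble, 1618 with shRNA 1 and 2388 with shRNA 2, so that the hairpin groups lay on opposite sides of scramble. With shRNA 1 the log2 fold change was -0.36 ± 0.13 (SE, the authors' deposited table) (DESeq2 adjusted p of 0.0224). That call was lost without the filter on low genes (adjusted p of 0.0508) and on recentring on the median gene (0.0502). With shRNA 2 it was 0.21 ± 0.12 (SE, the authors' deposited table) and was not called (DESeq2 adjusted p of 0.230).

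TREX1 (ENSG00000213689, chromosome 3, 48465811 to 48467645, plus strand, GRCh38) encodes the exonuclease that degrades cytosolic DNA before cGAS can bind it. Reconstructed means were 423.8, 357.8 and 419.1 normalised read counts in scramble, shRNA 1 and shRNA 2. Its log2 fold changes of -0.24 ± 0.18 and -0.02 ± 0.18 (SE, the authors' deposited table) were not called (DESeq2 adjusted p of 0.356 and 0.968), and their intervals ran from 0.664 to 1.07 and from 0.780 to 1.25 times scramble. The level of TREX1 is uncertain, because all 1515 of its exonic bases also lie in exons of ATRIP, a gene on the same strand that encodes a partner of the checkpoint kinase ATR. ATRIP was at -0.30 ± 0.15 (SE) with shRNA 1 (DESeq2 adjusted p of 0.154) and fell with shRNA 2, at -0.61 ± 0.16 (SE; 0.000620), per the authors' deposited table.

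Of the adaptors, MAVS changed and TICAM1 did not pass. MAVS (ENSG00000088888, chromosome 20, 3846799 to 3876123, plus strand, GRCh38) encodes the mitochondrial adaptor of RIG-I and MDA5. Its reconstructed means were 3903 normalised read counts in scramble, 2338 with shRNA 1 and 3404 with shRNA 2. The shRNA 1 group was the lowest, and the shRNA 2 group lay between it and scramble. The log2 fold change of MAVS was -0.74 ± 0.09 (SE, the authors' deposited table) with shRNA 1 (DESeq2 adjusted p of 4.97e-16), or 0.599 times scramble (interval 0.533 to 0.673). With shRNA 2 it was -0.20 ± 0.08 (SE, the authors' deposited table), short of the threshold (DESeq2 adjusted p of 0.0654), or 0.872 times scramble (interval 0.777 to 0.979). TICAM1 (ENSG00000127666, chromosome 19, 4815932 to 4831704, minus strand, GRCh38) encodes TRIF. Its reconstructed means of 1239, 1388 and 1227 normalised read counts in scramble, shRNA 1 and shRNA 2 lay close together. Its log2 fold changes of 0.16 ± 0.12 and -0.01 ± 0.12 (SE, the authors' deposited table) were not called (DESeq2 adjusted p of 0.371 and 0.961), with ratio intervals of 0.950 to 1.32 and 0.840 to 1.17. TLR3, the gene of Toll-like receptor 3, had a low mean of 24.9 normalised read counts in the authors' deposited table. It carried no adjusted p with shRNA 1 and was not called with shRNA 2.

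The kinases differed in whether they passed. IKBKE (ENSG00000263528, chromosome 1, 206470476 to 206496889, plus strand, GRCh38) encodes IKKε, a kinase whose gene is inducible by NF-kappaB. Reconstructed means rose from 1573 normalised read counts in scramble to 2409 with shRNA 1 and 2222 with shRNA 2. Both hairpin groups were above scramble and near each other. The log2 fold change of IKBKE was 0.61 ± 0.10 (SE) with shRNA 1 (DESeq2 adjusted p of 7.2e-08) and 0.50 ± 0.10 (SE) with shRNA 2 (1.46e-05) per the authors' deposited table. As ratios these were 1.53 (interval 1.33 to 1.76) and 1.41 (interval 1.23 to 1.63). A gene on the opposite strand shares exonic bases with 5 of the 10 members, and with 4 of them its mean was low in the authors' deposited table: C1orf147 with IKBKE (156 bases, mean 46.9), AC135279.3 with TBK1 (702 bases, 6.91), AC009299.3 with TANK (84 bases, 15.96) and DDX43 with CGAS (180 bases, 5.85). The fifth, CMC1 opposite AZI2, shares 3520 bases and had a mean of 356.0 in the authors' deposited table.

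TBK1 (ENSG00000183735, chromosome 12, 64451880 to 64502108, plus strand, GRCh38) encodes the kinase found in most cell types. Its reconstructed means were 1140, 1188 and 1116 normalised read counts in scramble, shRNA 1 and shRNA 2, the narrowest spread of the 10 genes as a ratio of the highest to the lowest. Log2 fold changes were 0.06 ± 0.12 and -0.03 ± 0.12 (SE, the authors' deposited table), with DESeq2 adjusted p of 0.798 and 0.903. The 95% intervals ran from 0.884 to 1.23 and from 0.831 to 1.15 times scramble, so that neither a change of IKBKE's size with shRNA 1 nor one of its size with shRNA 2 lies within them. Whether the change of IKBKE differed from that of TBK1 was not tested.

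The scaffolds of these kinases were called in neither comparison. TANK (ENSG00000136560, chromosome 2, 161136908 to 161236221, plus strand, GRCh38) binds TBK1, IKKε and TRAF proteins. Its reconstructed means were 798.2, 716.1 and 638.5 normalised read counts in scramble, shRNA 1 and shRNA 2. TANK was at -0.16 ± 0.14 (SE) with shRNA 1 (DESeq2 adjusted p of 0.485) and -0.32 ± 0.14 (SE) with shRNA 2 (0.0712) per the authors' deposited table, the latter with a ratio interval of 0.661 to 0.969. AZI2 (ENSG00000163512, chromosome 3, 28315003 to 28349127, minus strand, GRCh38) encodes NAP1, a further scaffold of TBK1. Its reconstructed means were 468.4, 494.6 and 400.9 normalised read counts. AZI2 was at 0.08 ± 0.18 and -0.22 ± 0.18 (SE, the authors' deposited table) (DESeq2 adjusted p of 0.821 and 0.403), with ratio intervals of 0.827 to 1.35 and 0.670 to 1.09. Of its exonic bases, 55.4% are shared with CMC1 on the opposite strand, and strand handling during counting was not given in the sources used here. CMC1 was called in neither comparison in the authors' deposited table.

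**Figure D2:**
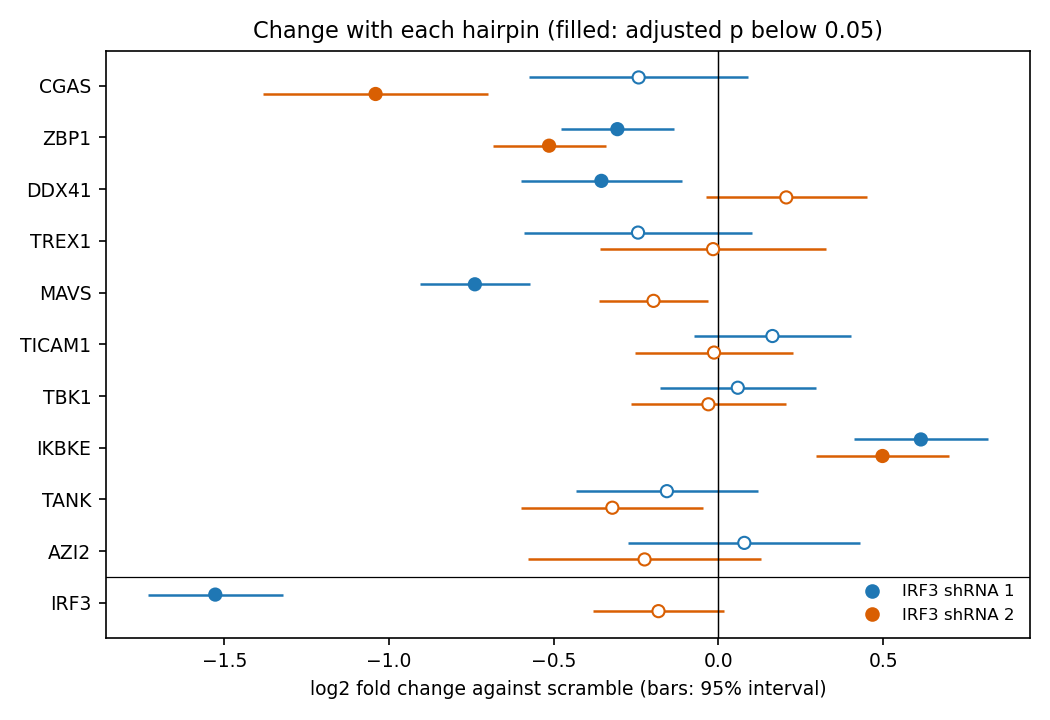
Log2 fold changes of each sensing gene and of IRF3 against scramble, with 95% intervals from the deposited SEs. Filled points passed an adjusted p of 0.05. IKBKE lies to the right of 0 with both hairpins, at 0.61 and 0.50, and ZBP1 to the left, at -0.31 and -0.51, while the intervals of TBK1 and TICAM1 span 0.

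Whether the hairpins differed was tested for each gene with a two-sided z, in which the log2 fold changes were subtracted and divided by the root of their summed squared SEs, with Benjamini-Hochberg adjustment. It passed for 3 of 10 genes, beside 24.0% of the 14488 genes tested. CGAS was lower with shRNA 2 than with shRNA 1 by a log2 difference of -0.80 ± 0.24 (SE), a ratio of 0.575 (adjusted p of 0.00647). MAVS was higher with shRNA 2 by 0.54 ± 0.12 (adjusted p of 8.64e-05), a ratio of 1.46, and DDX41 by 0.56 ± 0.18 (adjusted p of 0.00898), a ratio of 1.48. IRF3 itself was higher with shRNA 2 by 1.35 ± 0.15 (adjusted p of 2.93e-18). The shared scramble libraries make these SEs too large. With an SE reconstructed without the scramble variance the same 3 genes passed, and ZBP1 also did, at -0.21 ± 0.09 (adjusted p of 0.0470, beside 0.240 with the larger SE). With that SE 39.4% of the 14487 genes tested passed, so 4 of 10 members is near the background. For IKBKE the level with shRNA 2 was 0.922 times that with shRNA 1, with an interval of 0.756 to 1.13, and for TBK1 0.940 times, with an interval of 0.746 to 1.18. A difference between hairpins up to these bounds cannot be told from none for either kinase.

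**Figure D3:**
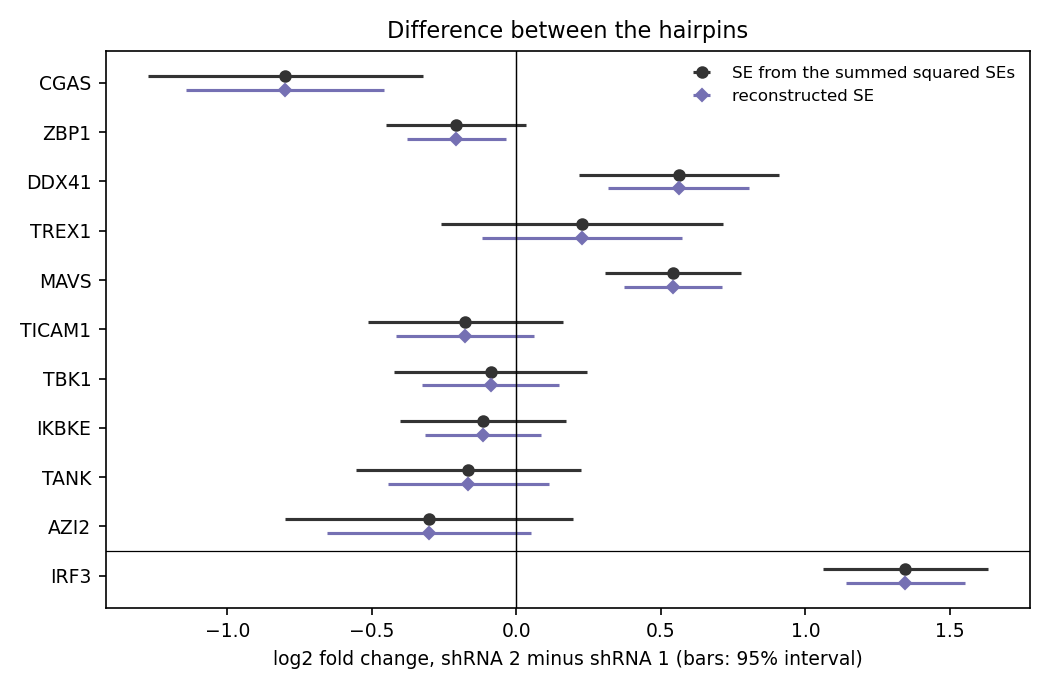
Difference of the log2 fold changes, shRNA 2 minus shRNA 1, for each sensing gene and IRF3, with 95% intervals from the summed squared SEs (circles) and from the reconstructed SE (diamonds). The intervals of CGAS (-0.80), MAVS (0.54) and DDX41 (0.56) leave out 0 with both SEs, and that of ZBP1 with the reconstructed SE alone.

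Around these genes stood 94 other genes of the pathway, listed by role. With shRNA 1, 11 were higher and 20 lower of 87 tested, and with shRNA 2, 18 were higher and 15 lower of 90, per the authors' deposited table. Those called were 35.6% and 36.7%, beside 24.6% and 29.0% of all genes tested, and 34.5% and 43.1% of the genes at least as abundant as the lowest of the 10. On recentring on the median gene the counts became 14 higher and 14 lower with shRNA 1 and 22 and 13 with shRNA 2. The counts by role below, of 9 to 15 genes each, are to be read against the same shares. The medians were -0.04 and 0.02, beside -0.03 and 0.00 over all genes tested.

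DNA sensing genes were lower in 6 and higher in 1 of 13 cases with shRNA 1, and in 5 and 1 with shRNA 2, per the authors' deposited table. IFI16, a nuclear DNA sensor, rose with both, at 0.25 ± 0.08 and 0.28 ± 0.08 (SE, the authors' deposited table). The Ku subunits XRCC5 and XRCC6 bind DNA ends for repair. XRCC6 fell in the authors' deposited table, at -0.35 ± 0.10 and -0.34 ± 0.10 (SE), as did XRCC5 at -0.23 ± 0.08 and -0.77 ± 0.08. The call of XRCC5 with shRNA 1 was lost on recentring, at an adjusted p of 0.0774, and without the filter on low genes, at 0.0525. RNA sensing genes were higher in 1 and lower in 1 of 12 cases with shRNA 1, and in 3 and 1 with shRNA 2, per the authors' deposited table. RIGI, listed as DDX58 at a mean of 191.9, was at 0.43 ± 0.25 and 0.54 ± 0.25 (SE, the authors' deposited table) and was called with neither hairpin. IFIH1, which encodes MDA5, stood at a mean of 1820, was not called with shRNA 1 at 0.17 ± 0.10 (SE), and rose with shRNA 2 at 0.26 ± 0.10 in the authors' deposited table (DESeq2 adjusted p of 0.0393, and 0.0757 without the filter on low genes). DDX60, a helicase gene at a mean of 29.8, was at 1.17 ± 0.65 and 1.46 ± 0.64 (SE, the authors' deposited table) and passed with neither hairpin. The RNA-activated kinase gene EIF2AK2 rose with shRNA 1 at 0.27 ± 0.10 and fell with shRNA 2 at -0.56 ± 0.10 (SE, the authors' deposited table), the former call being lost without the filter (adjusted p of 0.0807).

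In the Toll-like receptor branch, 1 gene was higher and 3 lower of 11 with shRNA 1, and 3 were higher and 1 lower of 12 with shRNA 2, per the authors' deposited table. UNC93B1, which brings nucleic acid receptors to endosomes, rose at 0.69 ± 0.08 and 0.54 ± 0.08 (SE, the authors' deposited table). TLR4 fell at -0.43 ± 0.13 and -0.60 ± 0.13 (SE, the authors' deposited table). MYD88, the adaptor of most Toll-like receptors, fell with shRNA 1 at -1.06 ± 0.15 and rose with shRNA 2 at 0.42 ± 0.15 (SE, the authors' deposited table). Kinase scaffold and shared signalling genes, 14 in all, gave 2 higher and 2 lower with shRNA 1 and 4 higher and 0 lower with shRNA 2, per the authors' deposited table. The adaptor gene TRADD rose at 0.50 ± 0.11 and 0.80 ± 0.10 and CASP8 at 0.38 ± 0.09 and 0.28 ± 0.09 (SE, the authors' deposited table). TBKBP1, a scaffold of TBK1 like TANK and AZI2, was at 0.26 ± 0.41 with shRNA 1 and rose with shRNA 2 at 2.09 ± 0.40 (SE, the authors' deposited table) (DESeq2 adjusted p of 1.44e-06), from a low mean of 90.8. TRAF3, a ligase that the adaptors recruit, was at 0.24 ± 0.11 and 0.27 ± 0.11 (SE, the authors' deposited table) and was called with neither hairpin (DESeq2 adjusted p of 0.0553 with shRNA 2). It passed on recentring, at adjusted p of 0.0458 and 0.0229.

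Nucleic acid clearance and transport genes were higher in 3 and lower in 5 of 15 cases with shRNA 1, and in 1 and 6 with shRNA 2, per the authors' deposited table. RNASEH2A, the catalytic subunit of the ribonuclease that removes RNA from DNA, fell at -0.62 ± 0.16 and -1.39 ± 0.16 (SE, the authors' deposited table). LRRC8A, of a channel that passes the product of cGAS, fell at -0.54 ± 0.14 and -0.42 ± 0.14 (SE, the authors' deposited table). SLC19A1, a folate carrier that also imports cyclic dinucleotides, rose at 0.42 ± 0.09 and fell at -0.59 ± 0.09 (SE, the authors' deposited table). Inhibitors were higher in 1 and lower in 2 of 13 cases with shRNA 1, and in 3 and 1 of 14 with shRNA 2, per the authors' deposited table. ITCH, a ubiquitin ligase that targets MAVS, rose with shRNA 1 at 0.29 ± 0.10 and was at -0.15 ± 0.10 with shRNA 2 (SE, the authors' deposited table). RNF125, a ligase of RIG-I, was at -0.44 ± 0.23 with shRNA 1 and fell with shRNA 2 at -0.72 ± 0.23 (SE, the authors' deposited table). TNFAIP3, the ubiquitin editor A20, was at -0.25 ± 0.10 and -0.17 ± 0.10 (SE, the authors' deposited table) and passed with shRNA 1 alone, a call lost on recentring. OTUD5, which removes ubiquitin from TRAF3, rose with shRNA 2 at 0.53 ± 0.09 (SE) and was at -0.02 ± 0.09 with shRNA 1 in the authors' deposited table.

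Transcription factors and targets gave 2 higher and 1 lower of 9 with shRNA 1, and 3 higher and 1 lower of 10 with shRNA 2, per the authors' deposited table. IRF5 rose at 0.26 ± 0.08 and 0.41 ± 0.08 (SE, the authors' deposited table). IRF7, the partner of IRF3 in interferon induction, fell with shRNA 1 at -0.40 ± 0.15 (DESeq2 adjusted p of 0.0350, and 0.0652 on recentring) and was at 0.30 ± 0.15 with shRNA 2 (SE, the authors' deposited table). CXCL10, a chemokine induced by IRF3 and by interferon, had a mean of 1023 normalised read counts in the authors' deposited table. It was at 0.08 ± 0.42 with shRNA 1 and rose with shRNA 2 at 2.55 ± 0.42 (SE, the authors' deposited table) (DESeq2 adjusted p of 1.42e-08). These SEs were large for that mean, beside 0.12 for TBK1 at a mean of 1148 in the authors' deposited table. CCL5, a further chemokine target, was at 0.33 ± 0.14 with shRNA 1 (DESeq2 adjusted p of 0.0798, and 0.0428 on recentring) and fell with shRNA 2 at -1.17 ± 0.15 (SE, the authors' deposited table) (DESeq2 adjusted p of 1.46e-13). Of the other targets listed, IFIT3 rose with shRNA 1 at 0.72 ± 0.27 (SE, the authors' deposited table) (DESeq2 adjusted p of 0.0371). With shRNA 2 IFIT3 was at -0.09 ± 0.28 (SE, the authors' deposited table) and was not called. IFIT1 and ISG15, at means of 72.1 and 108.6, were called in neither comparison in the authors' deposited table. IFIT2, OASL, RSAD2 and IFNL1 had means of 12.2 or less there and were called in neither. IFNB1 was not analysed here.

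**Figure D4:**
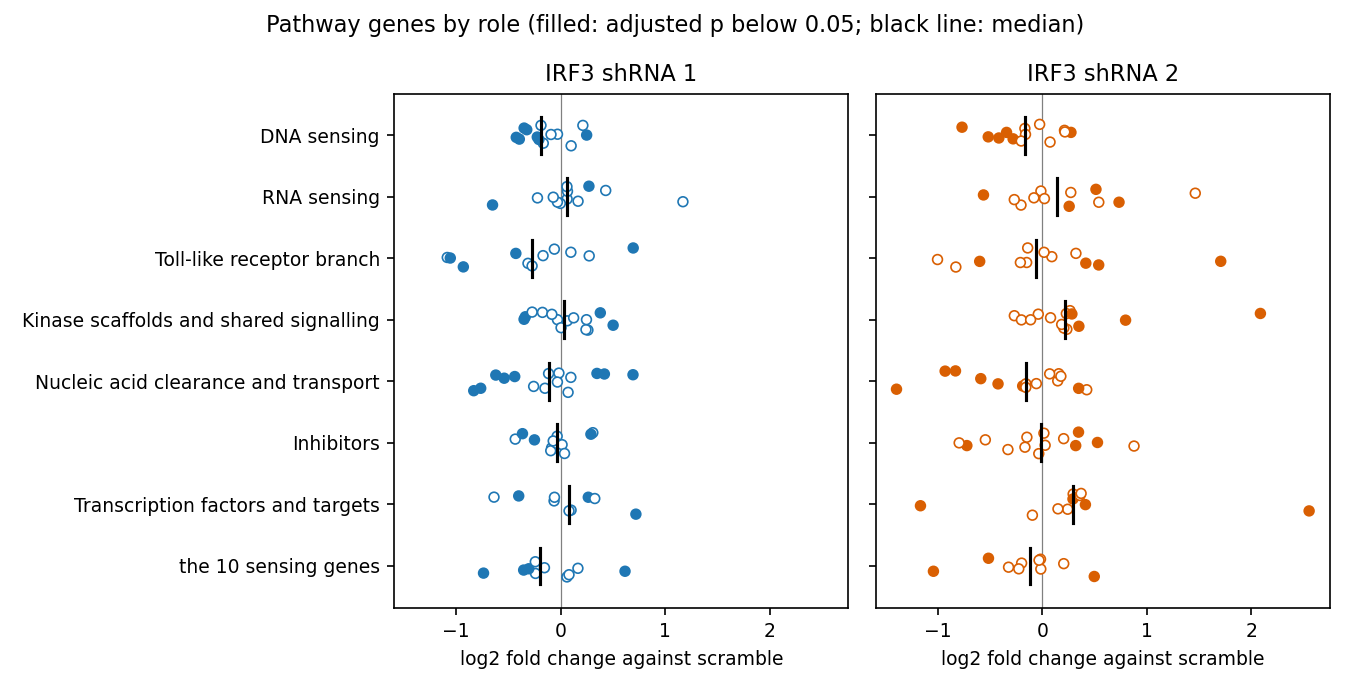
Log2 fold changes against scramble of the tested pathway genes by role and of the 10 sensing genes, one point per gene, filled where the adjusted p was below 0.05, with a black line at each median. Every role holds genes on each side of 0, and the largest value, CXCL10 at 2.55, is with shRNA 2.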

How the data were processed

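RNA of MM.1S cells was sequenced from 6 libraries, 2 each for scramble, IRF3 shRNA 1 and IRF3 shRNA 2, grouped by their titles. Salmon 0.12.0, DESeq2 1.24.0 and GRCh38 are named in the submitters' processing notes; their settings, annotation and strand handling were not given in the sources used here. The 2 deposited tables hold, per the file headers, a signal in normalised counts (the mean over fitted libraries), log2 fold changes and SEs on the log2 scale, a Wald score, p-values and adjusted p-values, all by the authors. Means were identical in both tables, as in a joint fit. Calls are the authors' DESeq2 results at an adjusted p below 0.05 over the whole table.

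Computed here with Python 3.11.15, numpy 2.4.6, pandas 2.3.3 and scipy 1.17.1 were the z test of the hairpin difference over 14488 genes, 95% intervals (1.96 SE) and promoter motif counts. Group means and the SE of the difference were reconstructed with them from each gene's mean, fold changes and SEs. That reconstruction was tried on simulated counts built with the same variance formula, so the trial cannot show whether the formula holds for these libraries. Coding as hairpin over scramble was checked on 328 genes whose dispersions could be solved from either table: their median absolute log ratio was 0.00240 as coded and 0.0397 to 0.0711 with a sign turned. All 33095 identifiers occur in GENCODE 29, which gave coordinates, lengths (APPRIS principal transcript) and overlaps. Promoters are RefSeq's.

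The members, lists and rules were chosen with earlier results of these data known. Named pathway genes are, per role, up to 3 with the lowest larger p and 1 with the lowest p of the difference, plus STING1, RIGI, IFIH1, TRAF3, IFNB1 and CXCL10, and genes overlapping a member. RIPK3, MLKL, BCL2L12, TLR3, IFIT1, IFIT2, IFIT3, ISG15, OASL, RSAD2, IFNL1 and the markers named were picked after their values were seen. The planned search for a protein motif was not run, for want of a protein table. Of the list, TLR8, IFNB1, IFNL2 and IFNL3 were not analysed here.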

Additional observations from a re-analysis of the deposited data

Results flagged for a closer look

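The effects of the hairpins differed by the z test for 3 of the 10 sensing genes, as log2 fold change with shRNA 2 minus shRNA 1: CGAS by -0.80, MAVS by 0.54 and DDX41 by 0.56. That share is near the 24.0% of all genes tested. The targeted gene IRF3 differed by 1.35. Of the other pathway genes, 25 of 87 tested differed, or 28.7%. Some of those named here were chosen for the lowest p of this same difference, so their values are a description. Higher with shRNA 2 were CXCL10 by 2.48 ± 0.59 (SE, adjusted p of 0.000297), TBKBP1 by 1.83 ± 0.57 (0.00852), MYD88 by 1.47 ± 0.21 (2.18e-10), IRF7 by 0.70 ± 0.21 (0.00654) and OTUD5 by 0.54 ± 0.12 (0.000132). Lower with shRNA 2 were CCL5 by -1.49 ± 0.21 (2.48e-11), SLC19A1 by -1.005 ± 0.13 (8.42e-13), EIF2AK2 by -0.83 ± 0.14 (2.15e-07), RNASEH2A by -0.77 ± 0.23 (0.0055), XRCC5 by -0.54 ± 0.11 (2.36e-05) and ITCH by -0.43 ± 0.14 (0.0119). MYD88, SLC19A1 and EIF2AK2 were called in opposite directions by the deposited tests of the separate comparisons, and on recentring CCL5 would be as well. The comparisons share their scramble libraries, and what sets the hairpins apart was not tested.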

How the results depend on the processing

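No paired analysis was possible because the tables give no value of a single library, and for the same reason no library was left out in turn. Of the member counts, that with shRNA 1 was 2 (from 4) at a log2 fold change of at least 0.5, and that with shRNA 2 was 5 (from 3) at an adjusted p below 0.1, where MAVS and TANK passed. The counts of all genes fell to 2002 and 3191 at that fold change, from 3571 and 4939. For the other pathway genes the count with shRNA 1 was 20 at an adjusted p below 0.01, from 31. With the reconstructed SE the hairpin difference passed for 38 of the other pathway genes, from 25, and for 5714 of all genes, from 3471. Recentring turned the sign of 4 values near 0 that were never called: TBK1 (0.0099), TICAM1 (0.0270) and TREX1 (0.0241) with shRNA 2 and OTUD5 (0.0263) with shRNA 1. The call of DDX41 with shRNA 1 was lost at 0.01 as well as in the settings named above. IKBKE with shRNA 2, at 0.498, was just under the fold change minimum, and ZBP1 (-0.31) and DDX41 (-0.36) with shRNA 1 were under it. IRF7 with shRNA 1 lost its call without the filter (adjusted p of 0.0790) and on recentring (0.0652). TNFAIP3 with shRNA 1 did so too (0.104 and 0.111). The length used for levels per kilobase was chosen after seeing the data. Among the members the SEs were largest for TREX1, AZI2 and CGAS, at 0.17 to 0.18, beside 0.08 to 0.09 for MAVS and ZBP1. What sets the size of these SEs was not tested.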
